A study of Mus musculus with 3 samples.

Results

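Solute carriers are membrane proteins that move sugars, amino acids, ions, metals, nucleotides and vitamins across the plasma membrane and the membranes of organelles. They are numbered by family, and the family number is read here as a guide to the substrate, which need not hold for every member. In the mammary gland they bring glucose, amino acids, phosphate, zinc and iodide to the epithelium that makes milk, whose ducts and alveoli are lined by luminal cells resting on contractile basal cells. The set described here holds the genes whose symbol starts with Slc and a digit, chosen by their unique molecular identifiers (UMIs, each tagging 1 captured transcript molecule) summed over all barcodes of the 3 libraries, of which a member needed at least 200. It comprises 187 of the 321 such symbols among 19050 genes in the tables. The summed count is a description and supports no result. Just inside the limit stood Slc41a3 with 210, Slc24a3 with 202 and Slc38a3 with 200 UMIs, and just outside it Slc4a4 with 195, Slc2a10 with 187 and Slc14a1 with 179. By family the members were 36 mitochondrial carriers (SLC25), 29 amino acid carriers, 24 metal carriers, 21 members of SLC35, the family of nucleotide sugar carriers, 18 ion carriers, 12 sugar carriers, 11 carriers of organic anions and cations, 7 of lipids and choline, 7 of vitamins and haem, 6 of peptides and nucleosides, 6 sodium-coupled carriers of organic solutes (SLC5), 4 of phosphate, sulfate and dicarboxylates, 3 of monocarboxylates, Slc33a1 and a pair of scaffold proteins. The scaffold proteins, Slc9a3r1 and Slc9a3r2, share the symbol but carry nothing, as do Slc4a1ap and Slc7a6os, which are named after another gene.

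The study profiled mammary epithelial cells in 3 droplet libraries of a single untreated group. Females of the inbred strain FVB/NJ were used at 10 weeks of age, and gland number 4 was taken from 4 of them and pooled. The tissue was digested with collagenase and trypsin, and live epithelial cells were sorted with CD49f, EpCAM, CD31, CD45, Ter119 and SytoxBlue. Whether the libraries come from 1 pool or several is not stated, so the p-values cover the variation among libraries, and that variation may be technical. No genotype or treatment was compared.

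Cells were placed in 3 classes by the UMIs of marker genes. Luminal progenitor cells (8191) were gated on Csn3, Elf5, Kit and Aldh1a3, hormone-responsive luminal cells (2610) on Prlr, Areg, Pgr and Esr1, and basal cells (10723) on Krt5, Krt14 and Acta2. A cell needed at least 5 UMIs in its top sum and 3 times the other sums, which left 4796 of 26320 kept barcodes in no class. Of the 26845 barcodes deposited, 6691, 9034 and 11120 were in libraries 1, 2 and 3, the order of all values below. Total UMIs were 18584156, 27220670 and 30984706. Markers outside the gate fell in the labelled classes: 6 further progenitor genes summed to between 4320 and 21365 CPM in luminal progenitor cells, 185 and 669 CPM in hormone-responsive cells and 212 and 836 CPM in basal cells. A further 6 hormone-responsive genes summed to between 4224 and 5178 CPM in hormone-responsive cells and to at most 232 CPM elsewhere, and 7 further basal genes to at most 259.5 CPM in the luminal classes and to between 6717 and 8304 CPM in basal cells. Markers of other cell types were low: adipocyte genes were at or near 0 (Adipoq and Cidec at 0 in both luminal classes), immune genes summed to at most 52.9 CPM and endothelial genes to at most 16.8 CPM. Fibroblast genes summed to between 18.1 and 52.4 CPM in luminal progenitor cells, 158 and 175 CPM in hormone-responsive cells, where Dcn alone made 140.2 to 171 CPM, and 102 and 342 CPM in basal cells. Erythroid genes summed to 3.36 to 99.1 CPM in luminal progenitor cells, 140.4 to 270.3 CPM in hormone-responsive cells, above both others, and 4.49 to 92 CPM in basal cells. The list was not uniform: in hormone-responsive cells Hba-a1 alone made 111, 226 and 124 CPM, and Hbb-bs 0.705, 3.58 and 2.57 CPM. In library 2 Hbb-bs stood at 43.7 CPM in luminal progenitor and 36 CPM in basal cells. Pericyte genes summed to 79.7 to 99 CPM in luminal progenitor, 68.4 to 104 CPM in hormone-responsive and 25.3 to 28.4 CPM in basal cells. In both luminal classes this was mostly Notch3, with Rgs5 at most at 3.73 CPM and Kcnj8 at 0. In basal cells Rgs5 had 15.6, 14.9 and 6.39 CPM, Notch3 8.53, 9.13 and 15.6 CPM and Cspg4 0.883, 4.2 and 3.9 CPM. The part of these lists in the results was not tested. Each pair of libraries shared between 77 and 146 barcodes.

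Library 1 stood apart. In luminal progenitor cells Csn2 had 160, 10029 and 6345 CPM in libraries 1, 2 and 3, and Lalba, Wfdc18 and Rspo1 were also lowest in library 1. Ltf, at 1402, 706 and 813 CPM, and Cd14 were highest there. The part of this difference in the member values below was not tested. Among members at 10 CPM or more, library 1 was over 2-fold below both other libraries for 7 of 124 in luminal progenitor cells (Slc12a9, Slc20a1, Slc25a25, Slc2a9, Slc39a4, Slc43a2 and Slc5a9) and over 2-fold above them for 1 (Slc6a6). These are 5.65% and 0.806% of members, against 3.54% below and 1.94% above over all genes tested at that level. It was below both for 6 of 117 members in hormone-responsive cells (5.13%, against 3.94% of all genes), and for 4 of 123 in basal cells (3.25%, against 1.86%), where Slc25a33 was above both. Library 2 showed no such member in any class, and library 3 showed 1, Slc13a2, which was above both others in luminal progenitor cells. Exons of another gene on the other strand overlap 41 members, and on the same strand 9. The sources used here do not state whether counting used strand. Whether these members also hold reads of the overlapping gene is therefore not known. Among members named here they are Slc1a1, Slc2a1, Slc4a2, Slc5a3, Slc5a6, Slc7a2, Slc7a7, Slc11a2, Slc12a4, Slc13a2, Slc15a4, Slc20a1, Slc20a2, Slc25a10, Slc25a23, Slc25a25, Slc25a33, Slc25a35, Slc29a1, Slc33a1, Slc35a3, Slc37a1, Slc43a2, Slc44a3 and Slc45a3.

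Levels are normalised UMI counts (CPM) after TMM scaling of the UMIs summed per library and class. Solute carriers as a set took 0.592% to 0.639% of UMIs in luminal progenitor cells, 0.805% to 0.889% in hormone-responsive cells and 0.615% to 0.651% in basal cells. The range of hormone-responsive cells lay above both others. Slc12a2, Slc7a2 and Slc5a5 averaged 1667, 471 and 443.5 CPM there, and at most 11.54% of that in either other class. The sum over all members averaged 6512, 8259 and 6492 CPM in luminal progenitor, hormone-responsive and basal cells. The higher share thus rests largely on these genes and is no trait of the set at large. With every cell thinned to 1500 UMIs, a luminal progenitor cell held a mean of 7.84, 8.61 and 8.58 different members, a hormone-responsive cell 9, 10.2 and 9.82 and a basal cell 8.07, 8.56 and 8.12. These counts include Slc12a2, Slc7a2 and Slc5a5, whose detection is given below. Thinning left out 342, 111 and 211 shallower luminal progenitor cells, 20, 76 and 96 hormone-responsive cells and 285, 649 and 1335 basal cells. Unthinned, the median cell held 2858, 3785 and 3366 UMIs in luminal progenitor cells, 3424, 3840 and 3337.5 in hormone-responsive cells and 2069.5, 2208 and 1770 in basal cells. All 187 members passed the filter on low counts. A gene was called where the adjusted p was under 0.05 and the log2 fold change 1 or more in size, in a fit over all 12647 genes that passed. In luminal progenitor over basal cells 41 members were called higher and 37 lower, 41.7% of members in all, against 30.4% of all genes called, 13.4% higher and 17% lower. In hormone-responsive over basal cells 37 were called higher and 42 lower, 42.2% of members, against 35.3% of all genes, 14.8% higher and 20.5% lower. In luminal progenitor over hormone-responsive cells 38 were called higher and 29 lower, 35.8% of members, against 24% of all genes, 13.7% higher and 10.3% lower. The comparisons share their sums, so none of them is a second view of another. Among genes of at least 200 UMIs, which match the set's own limit, 28.5%, 33.7% and 23.1% of genes were called in the same 3 comparisons.

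Sorted by class, 18 members were called higher in luminal progenitor cells than in both other classes (5.2% of all genes), 21 in hormone-responsive cells (5.94%) and 24 in basal cells (12.3%). A further 12 were higher in both luminal classes than in basal cells (6.42%, against 4.73% of all genes), 11 were lower in hormone-responsive cells alone (5.88%, against 4.73%) and 3 were lower in luminal progenitor cells alone (1.6%, against 2.38%). Another 27 were called in 1 comparison only (14.4%, against 12.7%) and 71 in none (38%, against 52.1%). Levels of the 12 members with the largest smaller fold change in each class are plotted per library.

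**Figure D1:**
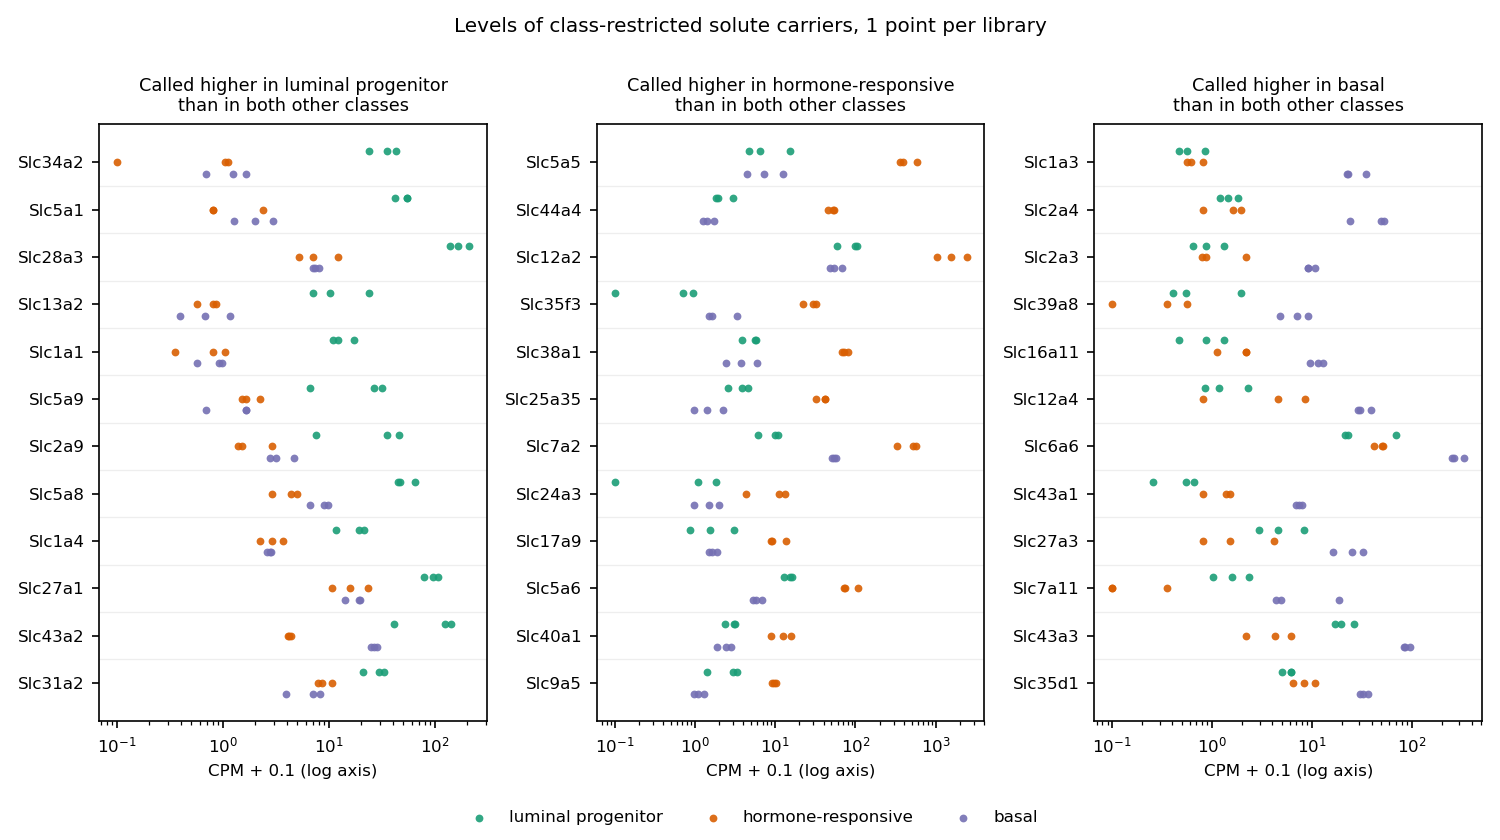
CPM plus 0.1 on a log axis for the 12 members of each class pattern with the largest smaller fold change, 1 point per library in luminal progenitor, hormone-responsive and basal cells. Slc5a5 lay between 354 and 587 CPM in hormone-responsive cells, above every point of the other classes, and Slc34a2 between 23.6 and 43 CPM in luminal progenitor cells.

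Promoters are shown for a pair of genes per class, to set the sequence directly upstream beside genes that differ this widely. They are the members with the largest smaller fold change in each class pattern among those with a single promoter entry. Each is the 250 bases upstream of the annotated start (RefSeq, GRCm38.p6), 5′ to 3′ on the gene's strand. Capitals mark a match to TTCNNNGAA (STAT), GGAATG (TEAD), TGTTTAC (FOX), CCGGAAGT (ETS) or a CArG box, searched on both strands.
Slc34a2, chr5:53049103-53049352, plus strand: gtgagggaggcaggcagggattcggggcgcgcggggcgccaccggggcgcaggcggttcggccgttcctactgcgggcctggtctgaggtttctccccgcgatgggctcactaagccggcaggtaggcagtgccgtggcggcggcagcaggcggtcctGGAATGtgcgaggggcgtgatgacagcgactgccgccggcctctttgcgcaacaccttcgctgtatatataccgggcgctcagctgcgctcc
Slc5a1, chr5:33103969-33104218, plus strand: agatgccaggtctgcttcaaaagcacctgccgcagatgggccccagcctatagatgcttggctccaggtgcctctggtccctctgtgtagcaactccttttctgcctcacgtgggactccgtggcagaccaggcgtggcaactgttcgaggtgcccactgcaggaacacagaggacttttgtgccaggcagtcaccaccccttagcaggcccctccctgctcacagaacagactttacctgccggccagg
Slc5a5, chr8:70892758-70893007, minus strand: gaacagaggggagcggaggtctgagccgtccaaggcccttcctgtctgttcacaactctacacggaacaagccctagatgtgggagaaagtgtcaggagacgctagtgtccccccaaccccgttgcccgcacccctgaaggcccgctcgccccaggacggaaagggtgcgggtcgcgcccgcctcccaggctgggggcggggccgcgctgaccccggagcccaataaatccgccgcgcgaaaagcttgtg
Slc44a4, chr17:34914216-34914465, plus strand: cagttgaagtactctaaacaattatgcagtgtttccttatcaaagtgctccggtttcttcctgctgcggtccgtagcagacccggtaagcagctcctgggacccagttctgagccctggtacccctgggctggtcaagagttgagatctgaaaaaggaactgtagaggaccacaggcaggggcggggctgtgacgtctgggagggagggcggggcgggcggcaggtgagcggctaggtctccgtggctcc
Slc1a3, chr15:8710808-8711057, minus strand: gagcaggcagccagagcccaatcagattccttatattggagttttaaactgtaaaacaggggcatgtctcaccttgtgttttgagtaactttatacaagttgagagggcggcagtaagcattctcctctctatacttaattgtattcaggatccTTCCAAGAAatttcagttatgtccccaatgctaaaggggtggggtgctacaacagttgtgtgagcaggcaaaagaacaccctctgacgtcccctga
Slc16a11, chr11:70213660-70213909, plus strand: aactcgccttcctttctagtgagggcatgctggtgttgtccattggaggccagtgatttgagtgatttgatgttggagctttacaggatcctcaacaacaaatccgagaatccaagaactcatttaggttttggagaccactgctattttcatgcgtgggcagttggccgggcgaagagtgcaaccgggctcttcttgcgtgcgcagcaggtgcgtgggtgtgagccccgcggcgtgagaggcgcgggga
Slc34a2 and Slc5a1 were leaders in luminal progenitor cells, Slc5a5 and Slc44a4 in hormone-responsive cells, and Slc1a3 and Slc16a11 in basal cells. Slc34a2 held a TEAD match and Slc1a3 a STAT match, and the other promoters held none of these motifs. Of 142 members with a promoter in the table, 7.04% held the STAT letters, against 8.13% of 27025 promoters of all genes, and 17.6% held the TEAD letters, against 14.4%. The FOX letters stood in 1.41% of the members' promoters against 3.54% of all, the ETS letters in 2.82% against 3.23% and a CArG box in 0.704% against 1.62%. In the 15 matched luminal progenitor genes 5 held TEAD letters and none STAT letters, in the 14 hormone-responsive genes 1 each, and in the 16 basal genes 5 each. A letter match describes the sequence and says nothing of binding.

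Among the sodium-coupled carriers of phosphate, dicarboxylates and organic solutes, several stood at high levels in a single class. Luminal progenitor cells led with Slc34a2, the apical sodium-phosphate carrier of secretory epithelia, at 23.6, 34.8 and 43 CPM, against 0, 1.02 and 0.936 CPM in hormone-responsive cells and 0.589, 1.15 and 1.54 CPM in basal cells. Its log2 fold change was 4.91 ± 0.10 over basal and 5.46 ± 0.84 over hormone-responsive cells, where ± is the SD of the log2 ratios taken within each library (n = 3; edgeR adjusted p = 6.07e-07 and 1.78e-06). Zero UMIs in hormone-responsive cells of library 1 allow up to 2.12 CPM at 3 counts (counting error only). Slc5a1, the intestinal sodium-glucose carrier SGLT1, had 41.2, 53.9 and 53.5 CPM in luminal progenitor cells, 0.705, 2.3 and 0.702 CPM in hormone-responsive cells and 1.18, 1.89 and 2.84 CPM in basal cells. For both genes every luminal progenitor value exceeded every other value, while hormone-responsive and basal values overlapped. Slc5a9, its relative SGLT4, was also called higher there at 6.43, 26.6 and 31.2 CPM, with a log2 fold change over basal cells of 4.10 ± 0.62, or 4.12 without library 1. Slc13a2, a sodium-dicarboxylate carrier, had 6.99, 10.1 and 23.6 CPM in luminal progenitor cells, 0.705, 0.767 and 0.468 CPM in hormone-responsive cells and 0.294, 0.576 and 1.06 CPM in basal cells. The antisense transcript Slc13a2os overlaps it and was counted apart, at 6 UMIs over all barcodes against 501 for Slc13a2. Whether its reads also entered the Slc13a2 count is not known. Slc5a8, a sodium-coupled monocarboxylate carrier, had 46.8, 64.5 and 44.6 CPM in luminal progenitor cells, 4.23, 4.86 and 2.81 CPM in hormone-responsive cells and 9.71, 6.5 and 8.75 CPM in basal cells. It was called higher in luminal progenitor cells than in both others (2.67 ± 0.57 over basal, 3.73 ± 0.24 over hormone-responsive). Its lower level in hormone-responsive over basal cells (-1.06) was not called without library 3 (-0.74).

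Hormone-responsive cells led with Slc5a5, the sodium-iodide symporter that concentrates iodide in thyroid and lactating gland. Its values were 4.57, 15.2 and 6.37 CPM in luminal progenitor cells, 389, 587 and 354 CPM in hormone-responsive cells and 4.41, 12.3 and 7.1 CPM in basal cells. Every hormone-responsive value exceeded every other value, and the log2 fold change was 5.84 ± 0.47 over basal cells (edgeR adjusted p = 3.98e-07) and -5.80 ± 0.54 for luminal progenitor over hormone-responsive cells. After thinning to 1500 UMIs, a Slc5a5 UMI was seen in 1.24% ± 0.785 of luminal progenitor cells, 41.5% ± 8.91 of hormone-responsive cells and 1.03% ± 0.354 of basal cells (SD, n = 3), against 2.9%, 61% and 1.52% unthinned in the same order. Csn2, a milk gene of luminal progenitor cells, appeared in basal cells at 2.42% to 3.11% of its level in progenitor cells, and Tagln, a basal gene, in luminal progenitor cells at 1.03% to 1.79% of its basal level. The mean Slc5a5 level in luminal progenitor and basal cells was 1.97% and 1.79% of that in hormone-responsive cells, and neither is read as expression. Carry-over was not measured with a gene of hormone-responsive cells, so the shares of Csn2 and Tagln set no limit for Slc5a5. Slc5a6, the sodium-dependent vitamin carrier for biotin and pantothenate, was also higher in hormone-responsive cells, at 15.1, 16 and 12.6 CPM in luminal progenitor cells, 71.9, 73.1 and 107 CPM in hormone-responsive cells and 6.77, 5.27 and 5.68 CPM in basal cells. An exon of Atraid on the other strand overlaps it, and whether reads of Atraid entered its count is not known. Slc5a3, the myo-inositol carrier, shares exons with Mrps6 and is uncertain. It was lower in hormone-responsive cells at 26.8, 78.5 and 44.7 CPM, against 151, 147 and 84.2 CPM in basal cells, a difference that was not called without library 1 (-0.97).

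Slc20a1, a phosphate importer, had 34.7, 100.1 and 99.8 CPM in luminal progenitor cells, 9.87, 20.7 and 11.9 CPM in hormone-responsive cells and 57.7, 67.6 and 83.9 CPM in basal cells. It was lower in hormone-responsive cells than in both other classes (-2.37 ± 0.57 over basal, 2.42 ± 0.63 for luminal progenitor over hormone-responsive), and 2.62 in the last comparison without library 1. Its relative Slc20a2 was called only in hormone-responsive over basal cells, at -1.13 ± 0.40.

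**Figure D2:**
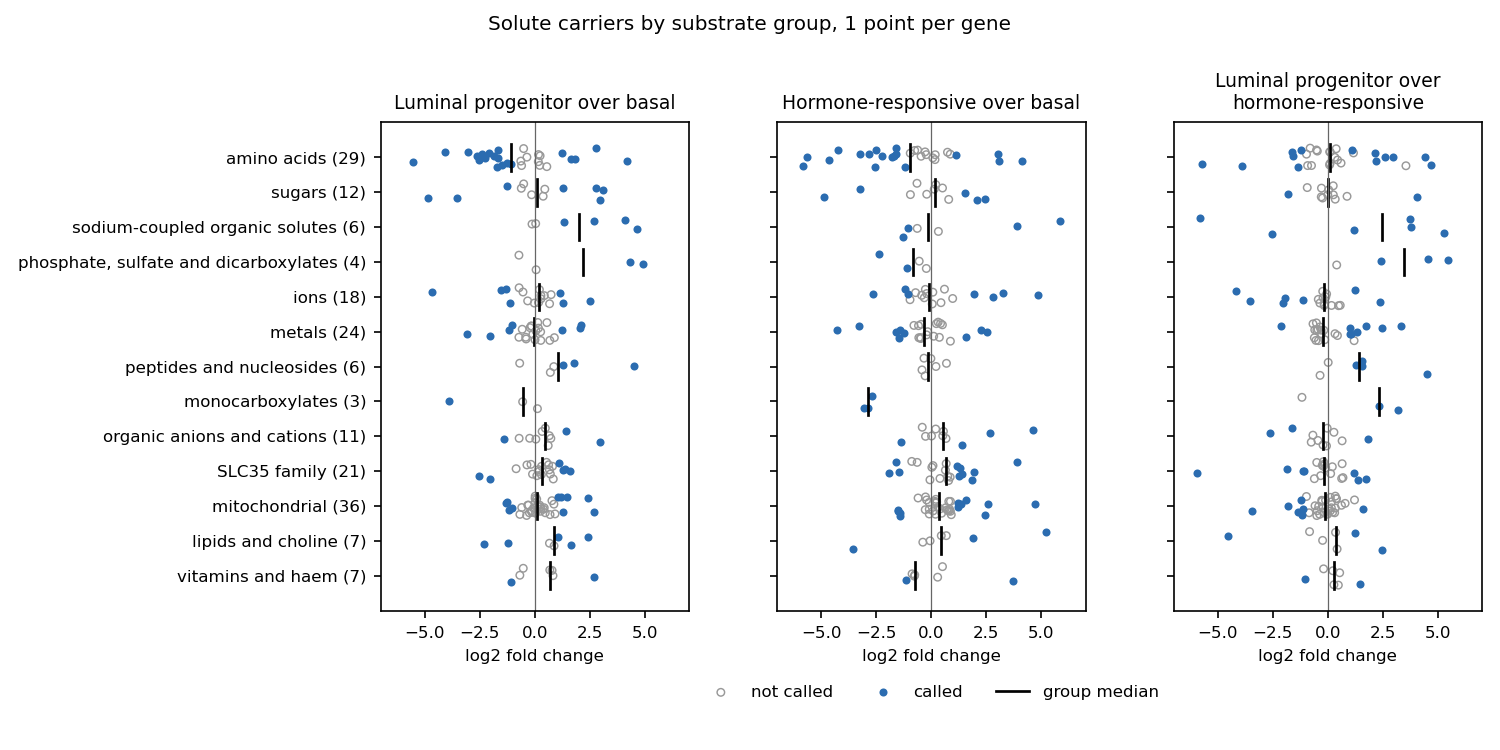
Log2 fold change of the members in the 3 class comparisons, Slc33a1 and the scaffold pair left out, 1 point per gene by substrate group (members in brackets); filled points were called, open points were not, and black bars are group medians. Amino acid carriers lie mostly left of 0 in both comparisons over basal cells.

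Many amino acid carriers were called lower in luminal progenitor than in basal cells. Of 29, 15 were called lower and 5 higher in luminal progenitor over basal cells, with a median log2 fold change of -1.09 against 0.08 over all genes tested, and 14 were lower and 4 higher in hormone-responsive over basal cells, with a median of -0.96 against 0.01. The background of genes called lower was 17% and 20.5%. Their summed level was 1047, 882 and 1003 CPM in luminal progenitor cells, 1026, 1260 and 1335 CPM in hormone-responsive cells and 2073, 1679 and 1850 CPM in basal cells. Much of the basal sum came from Slc3a2, whose values follow, and from Slc38a2 and Slc6a6, with basal means of 390.4 and 285.9 CPM. Slc6a8 and Slc43a3, described below as carriers of other substrates, are counted here by family number. Slc1a3, the glutamate-aspartate carrier of glia, was almost restricted to basal cells, at 0.746, 0.466 and 0.364 CPM in luminal progenitor cells, 0.705, 0.511 and 0.468 CPM in hormone-responsive cells and 23, 34.6 and 22.5 CPM in basal cells. The log2 fold change was -5.55 ± 0.52 in luminal progenitor over basal cells and -5.64 ± 0.45 in hormone-responsive over basal cells (edgeR adjusted p = 6.36e-07 and 2.09e-06). The luminal progenitor and hormone-responsive means were 1.97% and 2.11% of the basal mean, beside 1.03% to 1.79% and 0.784% to 1.11% for Tagln. Slc6a6, the taurine carrier, had 70.6, 22.8 and 21.6 CPM in luminal progenitor cells, 52.2, 42.4 and 50.1 CPM in hormone-responsive cells and 264, 256 and 338 CPM in basal cells. Its difference of -3.06 ± 1.07 over basal cells was -3.81 without library 1, whose luminal progenitor cells held the highest luminal level.

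Slc38a2 (SNAT2), a sodium-coupled carrier of small neutral amino acids, had 117, 172 and 202 CPM in luminal progenitor cells, 109, 142 and 138 CPM in hormone-responsive cells and 479, 319 and 373 CPM in basal cells, and its luminal progenitor difference of -1.28 was -0.95 without library 1 and then not called. Slc1a5 (ASCT2), the glutamine carrier, was -2.53 ± 0.08 in luminal progenitor and -1.79 ± 0.29 in hormone-responsive over basal cells, with basal levels of 60.9, 48.4 and 53.1 CPM. Slc7a5, the light chain of the large neutral carrier LAT1, had 47.3, 46.3 and 38.7 CPM in luminal progenitor cells, 9.17, 12.8 and 7.26 CPM in hormone-responsive cells and 126, 79.3 and 80.7 CPM in basal cells. Hormone-responsive cells were the lowest, at -3.22 ± 0.58 over basal and 2.13 ± 0.30 for luminal progenitor over hormone-responsive cells. The smaller difference of luminal progenitor over basal cells, -1.09, was -0.99 without library 1 and was then not called. Its heavy chain Slc3a2 showed no call in luminal progenitor over basal cells (-0.61 ± 0.32) and was lower in hormone-responsive over basal cells (-1.68 ± 0.31). Slc3a2 values were 471, 198 and 264 CPM in luminal progenitor cells, 136, 130.4 and 145 CPM in hormone-responsive cells and 572, 371 and 426 CPM in basal cells, and the call in luminal progenitor over hormone-responsive cells was lost without library 1 (0.73). Slc7a11, the cystine-glutamate exchanger that pairs with it, had 1.49, 0.932 and 2.27 CPM in luminal progenitor, 0, 0.256 and 0 CPM in hormone-responsive and 18.8, 4.77 and 4.26 CPM in basal cells; the basal value of library 1 was several times those of the other libraries. Zero counts in hormone-responsive cells of libraries 1 and 3 allow up to 2.12 and 0.702 CPM, and the same limit of 2.12 CPM holds for Slc6a15, Slc39a8 and Slc39a4 in library 1.

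Slc43a1 (LAT3), a carrier of large neutral amino acids, had 0.559, 0.155 and 0.455 CPM in luminal progenitor cells, 0.705, 1.28 and 1.4 CPM in hormone-responsive cells and 7.95, 7.32 and 6.86 CPM in basal cells. Further basal members were Slc7a1, a cationic amino acid carrier (-1.51 ± 0.30 and -1.59 ± 0.62 in the luminal classes over basal), the lysosomal and plasma membrane carrier Slc36a4 (-2.40 ± 0.28 and -1.20 ± 0.17), Slc6a15, a branched-chain amino acid carrier, and Slc6a8, the creatine carrier, which the family number places with this group (-1.66 ± 0.38 and -2.26 ± 0.53). Slc6a15 was -4.66 ± 0.31 in hormone-responsive over basal cells, and -1.69 ± 0.90 in luminal progenitor over basal cells. The luminal progenitor value was -2.24 without library 1, and -1.40 and -1.41, not called, without library 2 and library 3. Slc43a3, a purine nucleobase carrier of the same family as Slc43a1, was -2.08 ± 0.37 in luminal progenitor and -4.25 ± 0.62 in hormone-responsive over basal cells.

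A set of 3 amino acid carriers was instead called higher in luminal progenitor cells than in both others. Slc43a2 (LAT4), which carries large neutral amino acids, had 40.5, 124 and 139.8 CPM in luminal progenitor cells, 4.23, 4.09 and 3.98 CPM in hormone-responsive cells and 24.7, 26.6 and 28.3 CPM in basal cells. The difference was 1.82 ± 0.89 over basal and 4.66 ± 1.02 over hormone-responsive cells, and 2.19 and 5.02 without library 1. Slc1a1, the glutamate carrier EAAT3, had 12, 10.9 and 16.9 CPM in luminal progenitor cells, 0.705, 0.256 and 0.936 CPM in hormone-responsive cells and 0.883, 0.823 and 0.473 CPM in basal cells (4.17 ± 0.66 over basal). An exon of 4430402I18Rik on the other strand overlaps Slc1a1, and whether reads of 4430402I18Rik entered its count is not known. Slc1a4 (ASCT1), a neutral amino acid exchanger, was 2.76 ± 0.49 over basal and 2.59 ± 0.27 over hormone-responsive cells.

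In hormone-responsive cells the amino acid carriers that rose were Slc7a2, Slc38a1, Slc7a4 and Slc7a7. Slc7a2 (CAT2), a carrier of arginine and other cationic amino acids, had 5.97, 9.95 and 10.8 CPM in luminal progenitor cells, 329, 514 and 569.7 CPM in hormone-responsive cells and 50.9, 54.4 and 57.8 CPM in basal cells. The 3 classes did not overlap in any library, with basal cells between the others, and luminal progenitor over hormone-responsive cells was -5.73 ± 0.03, the SD being small beside the size of the difference. After thinning, a Slc7a2 UMI was seen in 1.26% ± 0.257 of luminal progenitor cells, 45.3% ± 8.36 of hormone-responsive cells and 7.34% ± 0.66 of basal cells, and unthinned in 2.9%, 65.1% and 10.8%. Slc38a1 (SNAT1), a sodium-coupled glutamine carrier, was 4.12 ± 0.70 over basal cells at 80.4, 72.1 and 68.8 CPM. Slc7a4, a relative of the cationic amino acid carriers, was 3.01 ± 0.32 over basal, while its difference to luminal progenitor cells was -1.37, or -0.99 without library 1 and then not called. Slc7a7 (y+LAT1) was 1.10 ± 0.40 over basal and not called there without library 3 (0.97). Exons of Oxa1l on the other strand overlap Slc7a7.

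**Figure D3:**
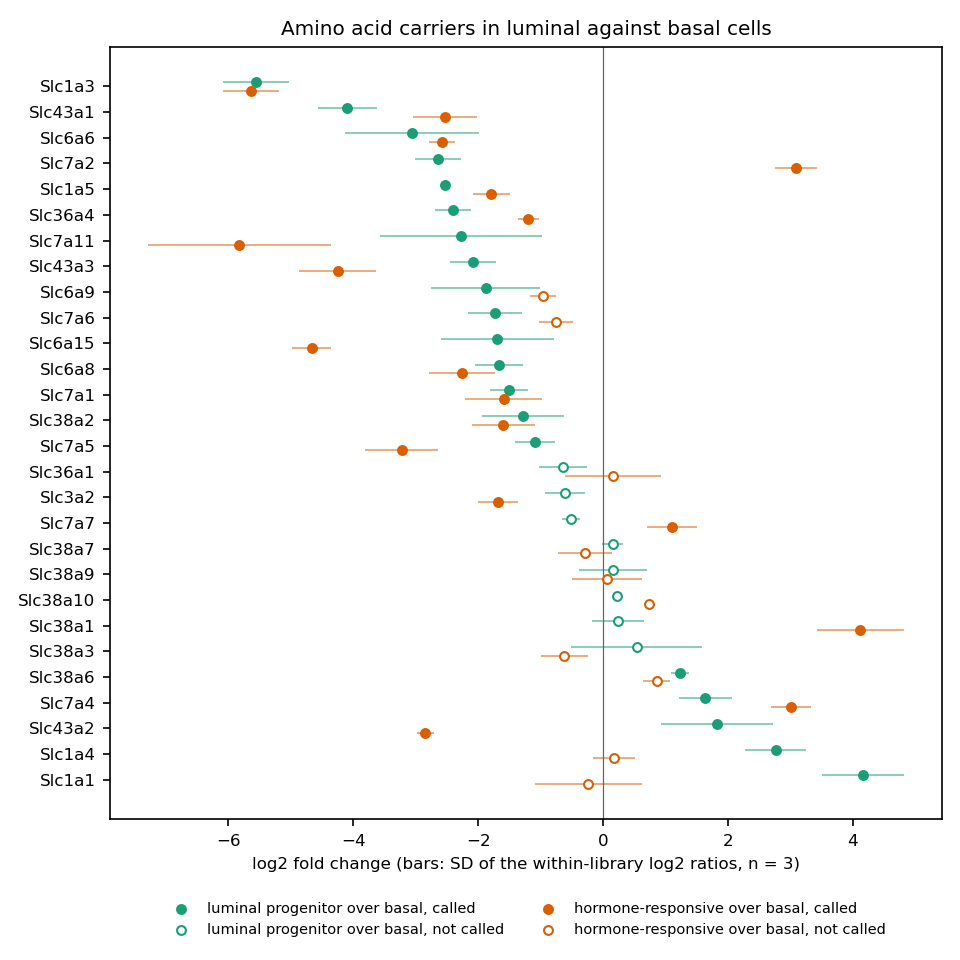
Log2 fold change of 28 amino acid carriers (Slc7a6os left out as no carrier) in luminal progenitor over basal and hormone-responsive over basal cells, with the SD of the 3 within-library ratios as bars; filled points were called. Slc1a3 stands at -5.55 and -5.64, Slc7a2 at -2.64 in luminal progenitor and 3.09 in hormone-responsive cells, and Slc1a1 at 4.17 in luminal progenitor cells.

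Of 12 sugar carriers, 4 were called higher and 3 lower in luminal progenitor over basal cells, 58.3% in all, against 30.4% of all genes. The share was 41.7% in hormone-responsive over basal cells, against 35.3%. In luminal progenitor over hormone-responsive cells it was 16.7%, below the 24% of all genes. Slc2a1 (GLUT1), the main glucose importer of the lactating gland, showed no call, at 30.2, 57.5 and 90.4 CPM in luminal progenitor cells, 55, 57.3 and 55.5 CPM in hormone-responsive cells and 104, 74.5 and 82.6 CPM in basal cells. The luminal progenitor values spanned a wide range and overlapped those of both other classes; the luminal progenitor over basal difference was -0.62 ± 0.99, -0.16 without library 1, and -1.06 and called without library 3. Slc2a4 (GLUT4), the insulin-responsive glucose carrier of muscle and fat, had 1.12, 1.71 and 1.36 CPM in luminal progenitor cells, 0.705, 1.53 and 1.87 CPM in hormone-responsive cells and 24.1, 49.3 and 52.8 CPM in basal cells, or -4.88 ± 0.45 and -4.87 ± 0.09 in the luminal classes over basal. A Slc2a4 UMI was seen in 0.122% ± 0.0505 of luminal progenitor cells, 0.159% ± 0.139 of hormone-responsive cells and 6.24% ± 2.37 of basal cells after thinning, and unthinned in 0.497%, 0.506% and 8.62%. Adipocyte genes summed to at most 0.294 CPM in basal cells, with Slc2a4 at between 24.1 and 52.8 CPM there. Slc2a3 (GLUT3), the neuronal glucose carrier, was also basal (-3.53 ± 0.31 and -3.24 ± 0.59). Slc2a9, which carries urate, was called higher in luminal progenitor cells at 7.46, 35.1 and 45.4 CPM against 1.41, 1.28 and 2.81 CPM in hormone-responsive and 2.65, 3.04 and 4.61 CPM in basal cells. Without library 1 the difference over basal was 3.34. Slc45a3 (2.94 ± 0.10 and 2.07 ± 0.53 over basal in luminal progenitor and hormone-responsive cells), Slc37a1 (2.79 ± 0.24 and 2.46 ± 0.27) and Slc37a4, the glucose-6-phosphate carrier of the endoplasmic reticulum (1.27 ± 0.33 and 1.51 ± 0.13), were higher in both luminal classes.

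**Figure D4:**
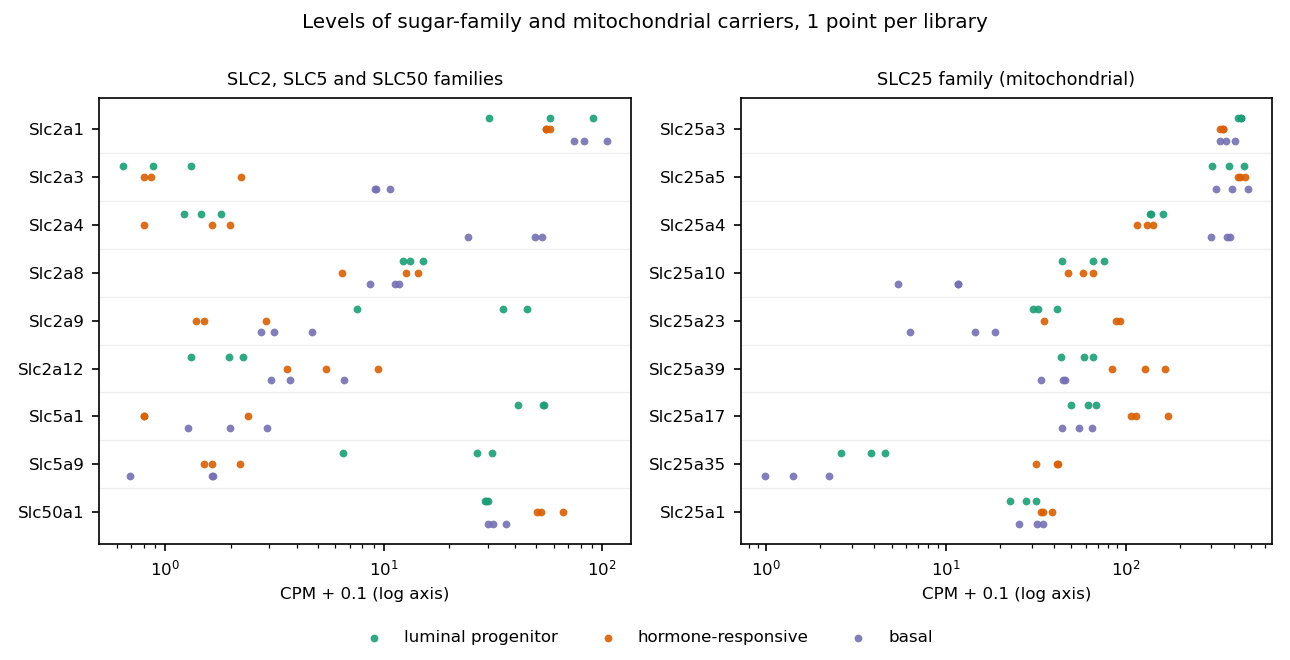
CPM plus 0.1 on a log axis for 9 sugar-family carriers and 9 members of the SLC25 family, 1 point per library in luminal progenitor, hormone-responsive and basal cells. Slc2a4 lies between 24.1 and 52.8 CPM in basal cells and at most at 1.87 CPM elsewhere, and Slc25a5 overlaps in all classes.

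Among ion carriers, 4 of 18 were called higher and 3 lower in hormone-responsive over basal cells, 38.9% in all, near the 35.3% of all genes. Slc12a2 (NKCC1), which takes up sodium, potassium and chloride and drives chloride secretion in epithelia, had 58.7, 98.7 and 103 CPM in luminal progenitor cells, 2435, 1542 and 1024 CPM in hormone-responsive cells and 67.7, 48.2 and 53.3 CPM in basal cells. All hormone-responsive values exceeded all others. The log2 fold change was 4.86 ± 0.48 over basal (edgeR adjusted p = 8.15e-06) and -4.19 ± 1.05 for luminal progenitor over hormone-responsive cells. Library 1 was highest in hormone-responsive cells, and without it the fold changes were 4.58 and -3.65. A Slc12a2 UMI was seen in 10.9% ± 3.18 of luminal progenitor cells, 78% ± 13.1 of hormone-responsive cells and 7.7% ± 1.87 of basal cells after thinning, and unthinned in 23.3%, 88.3% and 10.7%. Slc12a4 (KCC1), a potassium-chloride carrier that moves these ions the opposite way, was basal: 0.746, 2.18 and 1.09 CPM in luminal progenitor cells, 0.705, 8.44 and 4.45 CPM in hormone-responsive cells and 39.1, 29.3 and 30.04 CPM in basal cells. Its hormone-responsive values were spread widely, and the luminal progenitor over hormone-responsive call was lost without library 2 (-1.80) or library 3 (-1.98). Slc26a2, a sulfate carrier, was higher in luminal progenitor than in hormone-responsive cells (2.35 ± 0.12), with 71.3, 75.1 and 76.4 CPM in luminal progenitor, 15.5, 13.8 and 15.2 CPM in hormone-responsive and 28.3, 38.1 and 35.2 CPM in basal cells, and its difference over basal (1.13) was 0.98 without library 1 and not called. Slc9a5, a sodium-proton exchanger, and Slc24a3, a sodium-calcium-potassium exchanger, were higher in hormone-responsive cells (3.25 ± 0.16 and 2.82 ± 0.53 over basal) at levels of 9.17, 10.2 and 9.6 CPM and 4.23, 11 and 13.3 CPM. Slc8b1, the mitochondrial sodium-calcium exchanger, was higher in both luminal classes (2.49 ± 0.05 and 1.93 ± 0.28). The sodium-bicarbonate carrier Slc4a7 was called lower in luminal progenitor over basal cells (-1.15 ± 0.34). In hormone-responsive cells it was -0.72 ± 0.60 and not called, but -1.04 and called without library 2. Slc4a2, a chloride-bicarbonate exchanger, and Slc12a7, a potassium-chloride carrier, showed no call.

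Of 24 metal carriers, 3 were called higher and 4 lower in luminal progenitor over basal cells, 29.2% in all, near the 30.4% of all genes. Slc39a14 (ZIP14), a zinc and iron importer, had 139, 171 and 179.6 CPM in luminal progenitor cells, 26.8, 32.7 and 30.7 CPM in hormone-responsive cells and 66.2, 72 and 72.4 CPM in basal cells, and the classes did not overlap (1.21 ± 0.12 over basal, 2.44 ± 0.10 over hormone-responsive). Its relative Slc39a8 (ZIP8) was basal, at 1.86, 0.311 and 0.455 CPM in luminal progenitor cells, 0, 0.256 and 0.468 CPM in hormone-responsive cells and 9.12, 4.69 and 7.1 CPM in basal cells. Slc39a4 (ZIP4), the intestinal zinc importer, was lower in hormone-responsive cells than in both others, at 5.5, 14.9 and 19.2 CPM in luminal progenitor cells, 0, 1.53 and 1.87 CPM in hormone-responsive cells and 8.83, 10.2 and 18.7 CPM in basal cells. Slc39a11 (2.03 ± 0.28 and 2.53 ± 0.07) rose in both luminal classes, and Slc31a2, a copper carrier, in luminal progenitor cells (2.09 ± 0.20 over basal). Slc40a1, ferroportin, the iron exporter, rose in hormone-responsive cells (2.27 ± 0.68 over basal) at 15.5, 8.69 and 12.4 CPM. Slc11a2 (DMT1), a ferrous iron importer, had 11.6, 26 and 21.9 CPM in luminal progenitor cells, 9.87, 10.5 and 9.13 CPM in hormone-responsive cells and 17.1, 15.5 and 8.99 CPM in basal cells, and its luminal progenitor over hormone-responsive call (1.01) was lost without library 2 (0.83) or library 3 (0.86). Slc30a4, the zinc exporter whose loss makes mouse milk zinc-poor, showed no call, at 32.5, 50.5 and 44.3 CPM in luminal progenitor cells, 32.4, 31.7 and 37.2 CPM in hormone-responsive cells and 48.3, 43.4 and 49.6 CPM in basal cells. Slc30a2, the zinc exporter of secretory vesicles, and Slc6a14 did not reach 200 UMIs.

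Of 6 peptide and nucleoside carriers, 3 were called higher and none lower in luminal progenitor over basal cells, 50% in all, against 30.4% of all genes. Slc28a3 (CNT3), a sodium-coupled nucleoside carrier, had 209, 139 and 162 CPM in luminal progenitor cells, 12, 6.9 and 5.15 CPM in hormone-responsive cells and 7.95, 6.91 and 7.22 CPM in basal cells, with every luminal progenitor value above all others and log2 fold changes of 4.48 ± 0.20 over basal and 4.50 ± 0.42 over hormone-responsive cells. A Slc28a3 UMI was seen in 19.8% ± 4.95 of luminal progenitor cells, 1.24% ± 0.726 of hormone-responsive cells and 0.859% ± 0.18 of basal cells after thinning, and unthinned in 37.5%, 3.04% and 1.47%. Slc15a2 (PEPT2), which takes up di- and tripeptides, had 172, 183 and 218 CPM in luminal progenitor cells, 48.7, 68.3 and 77.9 CPM in hormone-responsive cells and 48, 56.9 and 64.1 CPM in basal cells (1.76 ± 0.08 over basal). Slc29a3, a lysosomal nucleoside carrier, was 1.25 ± 0.16 over basal, whereas the plasma membrane carrier Slc29a1 showed no call. None of the 6 members was called in hormone-responsive over basal cells by edgeR (35.3% of all genes) or by the DESeq2 Wald test. By either tool 2 of them (Slc15a4 and Slc29a1) had an unadjusted p under 0.05.

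Among monocarboxylate carriers, Slc16a1 and Slc16a11 were called lower in hormone-responsive over basal cells. Slc16a1 (MCT1), a carrier of lactate and pyruvate, had 26.8, 24.2 and 19.5 CPM in luminal progenitor cells, 4.23, 5.63 and 3.28 CPM in hormone-responsive cells and 52.1, 28.3 and 27.2 CPM in basal cells. Its hormone-responsive values lay below all others, and luminal progenitor and basal cells were not called apart. Slc16a11 was called higher in basal cells than in both luminal classes, at 1.21, 0.777 and 0.364 CPM in luminal progenitor cells, 2.12, 1.02 and 2.11 CPM in hormone-responsive cells and 11.5, 9.46 and 12.8 CPM in basal cells. Emb, a chaperone of monocarboxylate carriers outside the symbol rule, had 0.839, 7.3 and 3.91 CPM in luminal progenitor cells, 4.23, 49.9 and 28.1 CPM in hormone-responsive cells and 95.6, 158 and 183 CPM in basal cells.

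Carriers of lipids, vitamins and organic ions held a few class-restricted members. Slc44a4, of the choline carrier family, had 1.86, 1.71 and 2.91 CPM in luminal progenitor cells, 45.8, 53.7 and 53.1 CPM in hormone-responsive cells and 1.18, 1.32 and 1.66 CPM in basal cells, with every hormone-responsive value above all others (5.19 ± 0.15 over basal, edgeR adjusted p = 3.95e-07). Slc27a1, a fatty acid carrier, rose in luminal progenitor cells (2.39 ± 0.45 over basal, 2.45 ± 0.67 over hormone-responsive) at 106, 78 and 95 CPM, and its relative Slc27a3 was basal (-2.30 ± 0.26 and -3.54 ± 0.63 in the luminal classes, the hormone-responsive value being -4.21 without library 2). Slc44a3 rose in both luminal classes (1.65 ± 0.57 and 1.89 ± 0.56, or 1.37 and 1.62 without library 1). Slc22a18 was 2.98 ± 0.75 in luminal progenitor and 4.60 ± 0.98 in hormone-responsive over basal cells (5.20 without library 3 in hormone-responsive cells), at 7.46, 11 and 11.2 CPM and 31, 27.1 and 33.9 CPM. Slc17a9, the vesicular nucleotide carrier, was 2.65 ± 0.21 in hormone-responsive over basal cells. Slc46a3 was 3.70 ± 0.78 in hormone-responsive over basal cells, or 4.32 without library 3. Its call between the luminal classes (-1.03) was lost without library 1 (-0.83), library 2 (-1.32) or library 3 (-1.07). Slc22a23 rose in luminal progenitor cells (1.42 ± 0.45 over basal).

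The SLC35 family includes carriers that load nucleotide sugars into the Golgi and endoplasmic reticulum for glycosylation. Its number does not show that every member does so. In hormone-responsive over basal cells 7 of 21 members were called higher and 3 lower, against 14.8% and 20.5% of all genes. Those called higher include Slc35f3 (3.91), whose substrate was not assessed. In luminal progenitor over basal cells 28.6% were called, against 30.4% of all genes. The shares were 33.3% and 24% in luminal progenitor over hormone-responsive cells. Slc35a2, which carries UDP-galactose needed for lactose, showed no call, at 25.4, 22.7 and 22.6 CPM in luminal progenitor cells, 22.6, 27.9 and 31.6 CPM in hormone-responsive cells and 18.8, 14 and 16.9 CPM in basal cells. Slc35a1, the CMP-sialic acid carrier, rose in hormone-responsive cells (1.16 ± 0.12), and Slc35a3, the UDP-N-acetylglucosamine carrier, and Slc35c1, the GDP-fucose carrier, rose in both luminal classes (1.61 ± 0.20 and 1.41 ± 0.26 for Slc35c1). For Slc35a3 the luminal progenitor value of 1.09 was 0.95 without library 3 and was then not called. Slc35d1, a carrier of UDP-glucuronic acid, was basal, at 4.94, 6.06 and 6.09 CPM in luminal progenitor cells, 6.35, 8.18 and 10.8 CPM in hormone-responsive cells and 32.7, 30.7 and 36.9 CPM in basal cells. Slc35f3 had 0.839, 0.622 and 0 CPM in luminal progenitor cells, 31.7, 29.4 and 22.2 CPM in hormone-responsive cells and 3.24, 1.4 and 1.54 CPM in basal cells. Its zero count in luminal progenitor cells of library 3 allows up to 0.273 CPM. No library of the other classes came near its hormone-responsive level, and luminal progenitor over hormone-responsive cells was -5.94 ± 0.78, or -6.66 without library 1.

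Most members of the SLC25 family move metabolites and nucleotides across the inner mitochondrial membrane, and all are counted here by family number. Of 36, 10 were called in luminal progenitor over basal (27.8%, against 30.4% of all genes), 11 in hormone-responsive over basal (30.6%, against 35.3%) and 7 in luminal progenitor over hormone-responsive cells (19.4%, against 24%), shares near those of all genes. Slc25a3, the phosphate carrier of mitochondria, had 424, 439.6 and 439.9 CPM in luminal progenitor cells, 349, 348 and 334 CPM in hormone-responsive cells and 405, 364 and 336 CPM in basal cells. Slc25a5 (ANT2), an ADP/ATP carrier of most tissues, overlapped in all classes, while Slc25a4 (ANT1), the form of heart and muscle, had 138, 162 and 137 CPM in luminal progenitor cells, 115, 131 and 142 CPM in hormone-responsive cells and 366, 383 and 298 CPM in basal cells. Slc25a4 was thus -1.26 ± 0.14 and -1.42 ± 0.32 in the luminal classes over basal cells. Slc25a10, the dicarboxylate carrier, rose in both luminal classes (2.69 ± 0.26 and 2.58 ± 0.43) at 44.3, 65.7 and 75.9 CPM and 48, 65.5 and 58.1 CPM, against 5.3, 11.5 and 11.6 CPM in basal cells. Slc25a23 (ATP-magnesium/phosphate carrier) rose in both luminal classes as well (1.47 ± 0.63 and 2.45 ± 0.15), with library 1 below both others in hormone-responsive and basal cells (1.10 and 2.40 without it). In hormone-responsive cells Slc25a39, a glutathione carrier, was 1.58 ± 0.27 over basal, and Slc25a35, overlapped by Rangrf on the other strand and so uncertain, was 4.70 ± 0.37. Slc25a1, the citrate carrier that supplies fatty acid synthesis, showed no call, at 22.6, 27.8 and 31.8 CPM in luminal progenitor cells, 34.6, 33.8 and 38.6 CPM in hormone-responsive cells and 25.3, 31.8 and 34.8 CPM in basal cells. Slc25a25 was lower in both luminal classes (-1.32 ± 1.28 and -1.42 ± 1.02), with library 1 below both others in luminal cells, and neither call held with no library block or without library 1 (-0.67 and -0.94).

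Carriers and chaperones outside the symbol rule gave 38 genes in the tables of 40 listed, and 30 were tested. In luminal progenitor over basal cells 6 were called higher and 6 lower, in hormone-responsive over basal cells 5 and 5, and in luminal progenitor over hormone-responsive cells 7 and 7. Of all genes, 13.4% were called higher and 17% lower in the first comparison. The shares were 14.8% and 20.5% in the second, and 13.7% and 10.3% in the last. Spns2, a sphingosine-1-phosphate exporter, had 195, 177 and 239.6 CPM in luminal progenitor cells, 15.5, 10.5 and 14.5 CPM in hormone-responsive cells and 16.2, 10.3 and 13.6 CPM in basal cells. Slco2a1, the prostaglandin carrier, was lower in luminal progenitor cells than in both others, at 12.9, 15.7 and 19.5 CPM in luminal progenitor cells, 304, 222 and 209 CPM in hormone-responsive cells and 527, 220.3 and 220.2 CPM in basal cells. Mfsd2a, a lipid carrier, and Emb were lower in both luminal classes (-4.01 ± 0.86 and -5.45 ± 1.01 in luminal progenitor over basal cells, -1.16 ± 0.85 and -2.60 ± 1.39 in hormone-responsive over basal cells). Nipal1, a magnesium carrier, was higher in hormone-responsive cells (3.36 ± 0.78 over basal).

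Within luminal progenitor cells, casein-high cells (at least 2% of UMIs in Csn1s1, Csn1s2a, Csn2 and Wap) were compared with casein-low cells (under 0.5%). Library 1 held 11 casein-high cells, under the minimum of 20, so 2 libraries entered, with 536 and 695 casein-high and 675 and 1740 casein-low cells; 179 and 317 cells lay near the upper limit, between 1.5% and 2.5%. Median depth was 4660.5 and 3818 UMIs in casein-high cells and 2798 and 3156 UMIs in casein-low cells, and its part in the results was not tested. The fit left 1 residual degree of freedom, so its p-values lean on the spread shared over genes. Here ± is the SD over n = 2 libraries. Of 160 members tested, 3 were called higher and 2 lower, against 2.22% of all genes called, 1.05% higher and 1.17% lower (2.18% of genes of at least 200 UMIs). Slc43a2, the large neutral amino acid carrier described above, had 169 and 242 CPM in casein-high cells, against 76.1 and 85.2 CPM in casein-low cells (1.34 ± 0.25, edgeR adjusted p = 0.00637). Slc2a1, the glucose importer, had 75.3 and 143 CPM in casein-high cells, against 34.5 and 58.9 CPM in casein-low cells (1.21 ± 0.11, edgeR adjusted p = 0.00799). Slc11a2 had 32.9 and 29.9 CPM in casein-high cells, against 14.8 and 14.1 CPM in casein-low cells (1.11 ± 0.04, edgeR adjusted p = 0.0277). Lower were Slc5a8, at 18.8 and 18.5 CPM in casein-high cells, against 124 and 54.8 CPM in casein-low cells (-2.16 ± 0.81, edgeR adjusted p = 0.00719), and Slc6a6, at 15.2 and 11.5 CPM in casein-high cells, against 33.5 and 23.8 CPM in casein-low cells (-1.09 ± 0.07, edgeR adjusted p = 0.0361). For each of these the casein-high values lay on 1 side of the casein-low values in both libraries. Without the library as a block no member was called, against 28 of 160 at an unadjusted p under 0.05, 3 were called by the DESeq2 Wald test, and 7 with total counts in place of TMM. Slc11a2 and Slc6a6 were the members that lost their call by the DESeq2 Wald test. With a single casein limit of 1% of UMIs, Slc2a1 (0.86), Slc11a2 (0.79) and Slc6a6 (-0.73) were not called, and Slc25a24 (-1.10) gained a call. Slc28a3 (0.97 ± 0.02), Slc34a2 (0.90 ± 0.33), Slc2a9 (0.82 ± 0.02) and Slc39a14 (0.71 ± 0.26) passed the p threshold but not the fold threshold.

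**Figure D5:**
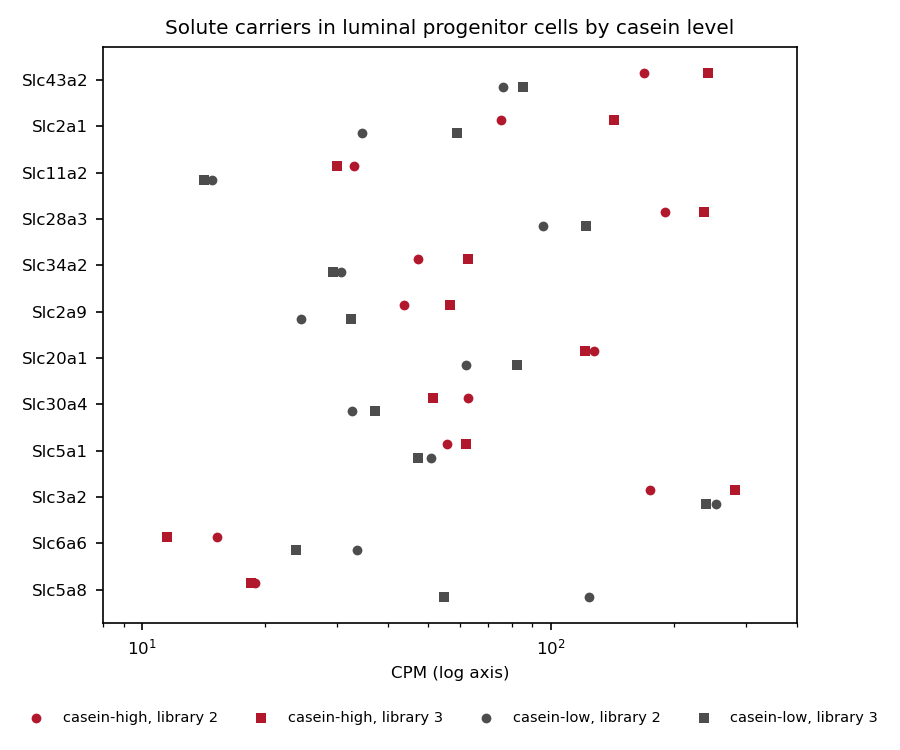
CPM on a log axis in casein-high and casein-low luminal progenitor cells of libraries 2 and 3 for 12 members. Slc2a1 lies at 75.3 and 143 CPM in casein-high cells and 34.5 and 58.9 CPM in casein-low cells, and Slc5a8 runs the other way.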

How the data were processed

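Raw UMI counts per gene and barcode of 3 droplet libraries (10x 3' v2) were deposited by the authors; Cell Ranger 2.1.0 and mm10 are named per the submitters' processing notes, and neither the annotation nor the counting of strand is given in the sources used here. Counts at 3' ends do not compare levels between genes. Barcodes with under 500 genes or 10% or more mitochondrial UMIs were left out. Doublets were handled by the class gate only. UMIs were summed per library and class, genes of the gate (and caseins in the casein comparison) were removed, and edgeR 4.0.16 (R 4.3.3) fitted quasi-likelihood models with TMM factors, filterByExpr and library as a block, two-sided, with Benjamini-Hochberg adjustment over all genes. Cells of every class were taken from each library's own suspension, so libraries pair the sums (correlation of deviations 0.212 to 0.44 within libraries, -0.342 to 0.0571 between). Within-library ratios used a prior count of 2. Fitted changes of genes with zero counts depend on the prior count and are no bound. In luminal progenitor over basal data simulated for 12608 genes, 95% of genes changed by a log2 of 1.5 and 97% of those changed by 2 were called, with 1 false call. The simulation gave every gene the same fixed spread and had no library effect, so these rates may not hold for the real data. DESeq2 1.42.0 was an alternative. Intervals and floors cover counting error only. Members and lists were chosen with earlier results of these data known. Named are, per class comparison, the 10 called members with the largest change in each direction and 1 sign in all libraries (5 for casein), the 3 members nearest 200 UMIs on either side, and carriers of known role in the gland; other members named were chosen after their values were seen. Some members are not reported here. Tables were read with Python 3.11.15.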

Additional observations from a re-analysis of the deposited data

How the results depend on the processing

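The count of members called stayed within 1.5 times of that reported in the 3 class comparisons under each alternative run: leaving out a library gave 70 to 75 (luminal progenitor over basal), 78 to 78 (hormone-responsive over basal) and 56 to 65 (luminal progenitor over hormone-responsive), and the other alternatives 65 to 78, 77 to 82 and 60 to 68. Members higher in 1 class than in both others numbered 17 to 19, 17 to 19 and 23 to 23 for luminal progenitor, hormone-responsive and basal cells without a library, and amino acid carriers called lower 13 to 14 and 14 to 15 in luminal progenitor and hormone-responsive over basal cells. The other alternatives gave 17 to 18, 20 to 22 and 22 to 26 for the classes and 13 to 15 and 11 to 15 for the amino acid carriers; alternatives for these counts were chosen after seeing the data. Of 8172 values of single members under alternatives, 7978 stayed on their side of the threshold, 130 lost the call and 64 gained it. Of these values 266 changed sign, 0 of them called in either fit. The values include members not called in the reported fit. Of the reported calls, 20 of 78 in luminal progenitor over basal cells were lost under at least 1 alternative. The same held for 9 of 79 in hormone-responsive over basal cells and 20 of 67 in luminal progenitor over hormone-responsive cells. In the casein comparison all 5 were lost under at least 1. In the casein comparison 3 members were called by the DESeq2 Wald test, 0 with no replicate block (28 of 160 at an unadjusted p under 0.05) and 3 with a single limit of 1% of UMIs, against 5 with DESeq2 size factors or no filter and 7 with total counts; the cause was not tested. The fit without the block changed no count of the class comparisons by over 1.5 times. Leaving out a library in the casein comparison leaves 1 library and no residual degrees of freedom, so it was not run. Members under 10 CPM rest on few UMIs in hormone-responsive cells of library 1, where 3 counts are 2.12 CPM.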
